A study of Mus musculus with 12 samples.

Results

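Testis RNA of 3 mice labelled as carrying the mutant Bckdk allele on both chromosomes was compared with that of 3 wild-type mice. Genes entered when 3 or more of the 6 testis libraries reached a normalised count of 10, which 19561 of the 47730 features in the deposited table did. In 18 of these a value of 1 library had been turned into a date and was missing, so 19543 were tested. The series holds 12 libraries in 4 groups, from skeletal muscle and testis, and its title places the work on branched-chain amino acid supply, the response to luteinizing hormone and testosterone synthesis. All mice were freely fed males, 5 to 6 months old, on a C57BL/6J background after at least 10 generations of backcrossing, and tissue was taken between ZT6 and ZT7. Wild types are Bckdk+/+ and mutants BckdkM/M in the genotype labels, and what the M allele changes is not given in the sources used here. A letter stands for the mouse number of each column. Wild types A, B and C and mutants D and F gave both tissues, whereas E gave testis and G gave muscle. Values below run in the order A, B, C for wild types and D, E, F for labelled mutants.

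Bckdk encodes the kinase that phosphorylates and so inactivates the branched-chain ketoacid dehydrogenase complex, which commits leucine, isoleucine and valine to breakdown, and its loss lowers these amino acids in the body. In the testis, Leydig cells between the tubules take luteinizing hormone as their signal, through the receptor Lhcgr, to import cholesterol and turn it into testosterone. Sertoli cells inside the tubules support germ cells through meiosis and the remodelling of spermatids into sperm.

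The testis libraries held 12852427 to 15795722 counted reads, and mitochondrially encoded genes took 0.756% to 0.845% of them. Spermatid and Leydig cell genes were abundant in all 6: Spem1, needed for sperm head and tail arrangement, was at 4266 to 4964 normalised counts and Insl3, a Leydig cell hormone, at 2504 to 3178. Transcripts of other tissues were present as well. Summed over 30 skeletal muscle markers, the normalised count was 19566, 9558 and 33094 in the wild types, against 32716, 31065 and 31455 in the labelled mutants. These sums hold Pgam2, which is also on the glycolysis list. Pgam2 was at 7424, 6982 and 6998 in wild types and 7474, 8452 and 7693 in labelled mutants. It thus made up most of the sum of B, and the other muscle markers together were lower there than the sum shows. Summed over 12 islet markers the normalised count was 18977, 18786 and 10326 in the wild types, against 11074, 13421 and 12576. The sum of D lacks Pyy, whose value is missing there and was 47.6 to 124 in the other libraries. So wild types A and B stood apart from the other 4 libraries, with fewer muscle and more islet transcripts, while in these lists wild type C was near the libraries labelled mutant. Summed over 16 markers of enzyme-secreting pancreatic cells the values were 556, 504 and 143 in the wild types, against 347, 325 and 356. There A and B were again the highest, but C was the lowest, well below every labelled mutant. No marker of the muscle and islet lists was at 0 in every testis library, and 29 or 30 of the 30 muscle markers had a read in each. In these bulk samples, fewer cells of a type and less RNA per cell cannot be told apart.

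**Figure D1:**
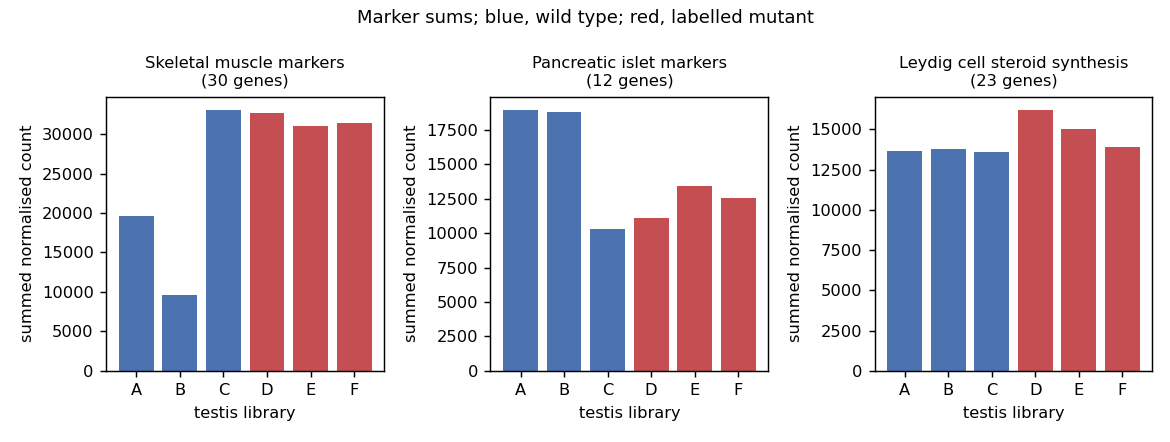
Summed normalised counts of 3 marker lists in each testis library (vertical axes start at 0), wild type in blue and labelled mutant in red. The islet sum of D lacks Pyy, whose value is missing. The muscle sum of wild type B, 9558, and of A, 19566, lie below the 31065 to 33094 of the other libraries, and the Leydig sums span 13581 to 16224. Every muscle sum includes Pgam2, at 6982 to 8452.

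The targeted gene went against the label. Bckdk (chromosome 7, 127904082 to 127910221, GRCm38) was at 68.0, 73.3 and 71.0 normalised counts in wild-type testis, against 138, 119 and 114 under the mutant label. All libraries labelled mutant lay above all wild types, with means of 70.7 ± 2.68 and 124 ± 12.8 (SD, n = 3 each). The log2 change of 0.79 (SE 0.15) missed the threshold (limma, adjusted p = 0.349). In muscle of the same study Bckdk was at 2214, 2421 and 2627 in the wild types but at 14.8, 14.3 and 12.4 in mutants D, F and G. The change in testis was thus 8.14 log2 units above that in muscle (SE 0.20, adjusted p = 1.26e-10 for the difference between tissues, limma). Of 14677 genes tested for such a difference 2 were called (0.0136%), 1 in each direction (0.00681%). Mice D and F had less Bckdk in muscle and more in testis than every wild type.

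A feature named NeoR, by its name a neomycin resistance cassette of the kind used in gene targeting, went with the label. Its testis values were 1.76, 2.50 and 3.34 in wild types, then 13.1, 19.9 and 18.6 under the mutant label. NeoR passed the filter on low values only through the labelled mutants, so the groups could not overlap. The log2 change of 2.37 (SE 0.47) missed the threshold in the testis fit (limma, adjusted p = 0.374) and passed it only where all 12 libraries shared a model (0.0222). In muscle NeoR was at 2.28, 3.25 and 3.85 in wild types and 251, 208 and 266 in mutants, so the testis change was 3.52 log2 units smaller (a difference of -3.52, SE 0.43, adjusted p = 0.0165). Gdpd3, a lysophospholipase D gene near Bckdk, was at 14.1, 5.83 and 3.34 in wild-type testis and 7.06, 12.4 and 12.4 in labelled mutants, overlapping (log2 change 0.57, SE 0.53, adjusted p = 0.85). In muscle its log2 change was 4.58. All directions below are those of the labelled groups.

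Few genes differed. At an adjusted p below 0.05 limma called 4 of 19543 genes (0.0205%), 3 higher (0.0154%) and 1 lower (0.00512%) in the libraries labelled mutant. Without adjustment 1386 genes had p below 0.05 (7.09%), 1088 higher (5.57%) and 298 lower (1.52%). Leaving out wild types A and B together left 1 call, as did leaving out A, B or D alone, whereas 6 genes were called without C and 10 by DESeq2. For 2618 genes (13.4%) the groups did not overlap, 1900 with the labelled mutants higher (9.72%) and 718 lower (3.67%). The log2 change was above 0 for 59.6% of genes and below 0 for 40.4%. Its median over all genes was 0.03, and 29 of 14081 genes with a mean of at least 50 changed by 1 log2 unit or more. The excess of higher values depended on the scaling. With the deposited size factors 78.5% of the genes with p below 0.05 were higher, against 56.4% by median-of-ratios within testis, 58.2% by TMM, 51.0% by edgeR and 56.3% by DESeq2. Splits of gene lists below use the deposited size factors unless a scaling is named. Many genes below were named for a small p, so groups that do not overlap add no support for them.

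**Figure D2:**
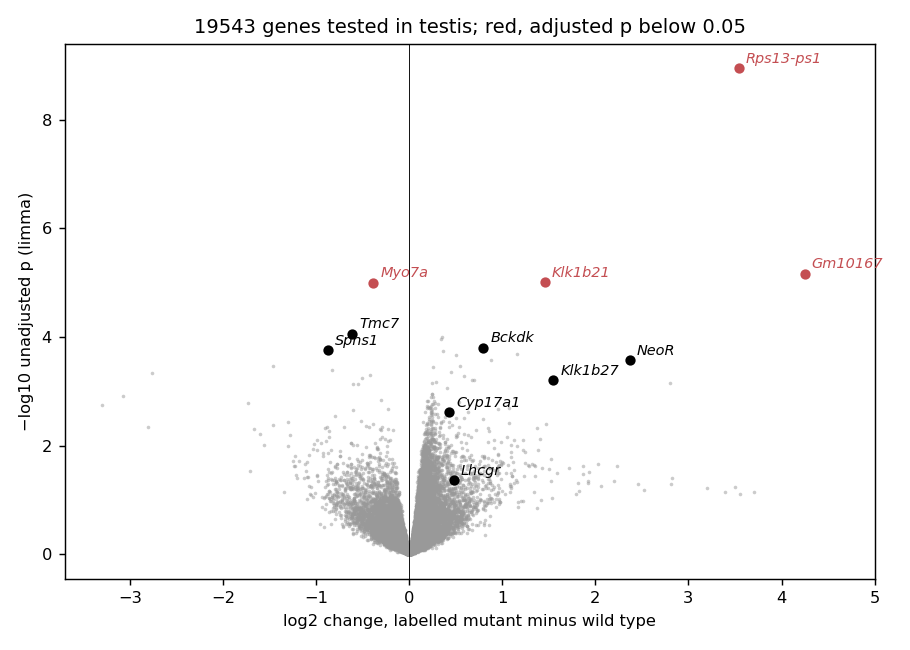
Each point is 1 of 19543 genes, with its log2 change (labelled mutant minus wild type) on the horizontal axis and -log10 of the unadjusted limma p on the vertical axis. The 4 genes in red passed an adjusted p of 0.05, and the genes in black, Bckdk, NeoR, Cyp17a1 and Lhcgr among them, did not.

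The 3 genes called higher were 2 processed pseudogenes and a kallikrein. Rps13-ps1 (chromosome 8, 87047689 to 87048226, plus strand), a processed copy of the ribosomal protein gene Rps13, was at 24.7, 29.2 and 27.6 in wild types and 402, 388 and 221 in labelled mutants. The groups were far apart, and F was the lowest of the labelled mutants (log2 change 3.54, SE 0.21, limma adjusted p = 2.23e-05). It was called in 19 of 20 alternative analyses. In muscle the same feature was at 28.5, 31.4 and 39.8 in wild types and 668, 441 and 462 in mutants, and the change did not differ detectably between tissues (difference -0.39, SE 0.35, adjusted p = 0.726).

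Rps13-ps1 and its parent are near-identical. Its transcript matched that of Rps13 (chromosome 7, 116331505 to 116334195) at 99.6% of 522 aligned bases, with 2 mismatches. Both mismatches fall in this coding stretch of 96 bases (GENCODE M21 transcripts, 5′ to 3′), shown because these are the aligned bases at which the pair differs. Capitals mark the bases that differ.
Rps13-ps1: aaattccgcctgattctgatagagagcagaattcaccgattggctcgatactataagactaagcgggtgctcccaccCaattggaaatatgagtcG
Rps13: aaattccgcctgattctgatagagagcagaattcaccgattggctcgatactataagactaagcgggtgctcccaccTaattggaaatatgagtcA
Rps13 itself was at 1310, 1375 and 1265 in wild types and 994, 852 and 1119 in labelled mutants, lower in every labelled mutant without passing the test (log2 change -0.42, limma adjusted p = 0.467; 0.0119 by DESeq2). The sum of the pair was 1335, 1404 and 1293 in wild types, against 1396, 1239 and 1340, so that the groups overlapped. How reads with 2 possible places were counted is not given in the sources used here, so the division between the pair is uncertain.

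Gm10167 (chromosome 5, 148182899 to 148184377, minus strand), a processed pseudogene, was at 0, 0.83 and 0 in wild types and 23.2, 19.1 and 24.9 in labelled mutants. These are 1 read against 74, a ratio of 78.6 with a 95% counting interval of 13.7 to 3146 (fitted log2 change 4.25, limma adjusted p = 0.0489). All 3 labelled mutants lay above the wild types, but Gm10167 passed the filter on low values only through them, so the groups could not overlap. Pseudogene reads can be shared with other genes, so its level is uncertain.

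Mrpl48-ps, on chromosome 4, showed the same kind of relation to a chromosome 7 gene as Rps13-ps1: it matched Mrpl48, a mitochondrial ribosomal protein gene, at 98.1%. Its values were 0, 1.67 and 1.67 in wild types and 11.1, 10.8 and 16.0 in labelled mutants, not called (log2 change 2.80, limma adjusted p = 0.469). Mrpl48-ps too passed the filter only through the labelled mutants, so its groups could not overlap. Mrpl48 was at 491, 568 and 532 against 465, 480 and 488. All labelled mutants lay narrowly below all wild types, and groups were apart in that direction for 3.67% of all genes. The sum of the pair was 491, 570 and 534 in wild types, against 476, 490 and 504, so that the groups overlapped. Rps13 and Mrpl48 both lie on chromosome 7, as does Bckdk.

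**Figure D3:**
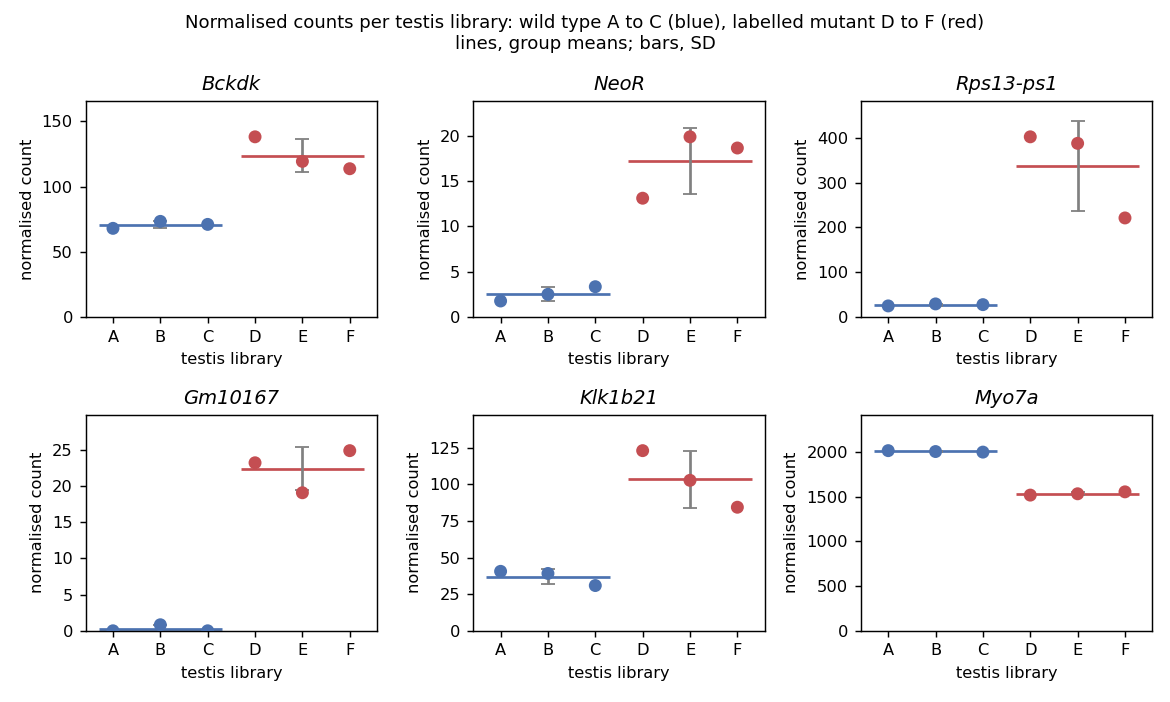
Normalised counts (vertical axes from 0) in each testis library of Bckdk, NeoR and the 4 genes called, with group means as lines and SD as bars. In all 6 panels the 3 wild types (blue) and the 3 libraries labelled mutant (red) do not overlap, and Myo7a alone is lower in the latter. For NeoR and Gm10167 the filter on low values required groups that do not overlap.

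Tissue kallikreins are secreted serine proteases encoded by a tandem cluster on chromosome 7, and several are made in Leydig cells. Of 16 on the list, 11 passed the filter, 9 were higher and 2 lower in labelled mutants, with a median log2 change of 0.51 against 0.03 for all genes. An unadjusted p below 0.05 was reached by 5, all higher, against 5.57% of all genes in that direction, and 1 of these, Klk1b22, passed the filter only through the labelled mutants. The median was 0.15 over members with a mean of at least 50, and 0.33 (without D) to 0.65 (without E) with a library left out. Klk1b21 (44102328 to 44106583, plus strand) was called: it was at 40.6, 39.1 and 30.9 in wild types and 123, 103 and 84.4 in labelled mutants, clearly apart (log2 change 1.46, SE 0.20, limma adjusted p = 0.0489). It was called in 5 of 20 alternatives and lost the call whichever library was left out, with adjusted p from 0.0576 to 0.548. Klk1b27 was at 22.9, 28.3 and 11.7 in wild types and 86.7, 47.2 and 51.5 in labelled mutants (log2 change 1.55, SE 0.34, adjusted p = 0.469; 0.0446 by DESeq2). Klk1b24 was at 44.1, 38.3 and 28.4 against 68.6, 65.5 and 57.7 (log2 change 0.79, SE 0.22, adjusted p = 0.696). In both the labelled mutants lay above every wild type.

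The other members were mixed. Klk1b22, named here after its values were seen, was also apart at 6.18, 5.00 and 4.18 against 20.2, 15.7 and 12.4 (log2 change 1.47, adjusted p = 0.696). Like NeoR, Gm10167 and Mrpl48-ps, it passed the filter on low values only through the labelled mutants. Klk1b8, the most abundant member, was at 331, 371 and 380 against 419, 331 and 457, overlapping. Klk1b26 was at 80.3, 103 and 83.5 against 81.7, 72.9 and 72.8, also overlapping and with a log2 change of -0.22. These are near-copies, so reads could be shared among them: Klk1b21 matched Klk1b24 at 92.8% and Klk1b27 at 92.6%. The 96 coding bases with the most mismatches between Klk1b21 and Klk1b27 show how far the pair can be told apart, with the 10 differing bases in capitals.
Klk1b21: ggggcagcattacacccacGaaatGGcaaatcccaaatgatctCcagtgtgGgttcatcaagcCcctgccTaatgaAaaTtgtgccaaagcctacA
Klk1b27: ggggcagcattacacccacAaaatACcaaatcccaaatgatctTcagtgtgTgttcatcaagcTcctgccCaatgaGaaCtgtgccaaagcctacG
Their promoters were similarly close. The 250 bases before the RefSeq start (GRCm38.p6, plus strand) are given for the pair with the largest changes of the 3, chr7:44102042-44102291 for Klk1b21 and chr7:44052040-44052289 for Klk1b27.
Klk1b21 promoter: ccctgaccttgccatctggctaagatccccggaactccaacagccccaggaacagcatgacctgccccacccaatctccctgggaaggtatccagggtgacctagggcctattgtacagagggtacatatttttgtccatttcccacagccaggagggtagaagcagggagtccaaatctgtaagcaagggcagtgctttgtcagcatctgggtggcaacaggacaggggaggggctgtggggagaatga
Klk1b27 promoter: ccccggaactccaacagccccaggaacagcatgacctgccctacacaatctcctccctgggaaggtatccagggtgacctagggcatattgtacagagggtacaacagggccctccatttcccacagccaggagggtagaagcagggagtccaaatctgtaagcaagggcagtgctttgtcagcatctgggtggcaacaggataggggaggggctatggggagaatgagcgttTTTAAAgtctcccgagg
The windows matched at 93.0% of 228 aligned bases, and that of Klk1b21 matched the Klk1b24 window at 98.1% of 214. Capitals mark TTTAAA, which the windows of Klk1b27 and Klk1b24 hold and 12.1% of 32851 RefSeq promoter windows of this length hold on either strand. The Klk1b21 window lacks these letters, but its RefSeq start lies upstream of the GENCODE one. That window ends at 44102291, short of the GENCODE start at 44102328. The Klk1b27 window ends at 44052289, next to its GENCODE start at 44052290. The matching place in Klk1b21 lies past the end of its window and was not examined, so no difference between the genes follows. TATAAA (12.4% of all windows) was in none of the 3, and AGAACA or its complement TGTTCT (16.1%) was in the Klk1b24 window only.

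Myo7a (chromosome 7, 98051060 to 98119524, minus strand) was the single gene called lower. This unconventional myosin moves cargo along actin and is known for its role in inner-ear hair cells. It was at 2017, 2007 and 2001 in wild types and 1519, 1534 and 1556 in labelled mutants, so the spread within each group was far smaller than the gap (means 2009 ± 8.25 and 1537 ± 18.3, log2 change -0.39, SE 0.05, limma adjusted p = 0.0489). The call was made in 7 of 20 alternatives, among them edgeR (0.0436) and DESeq2 (1.53e-05). It was lost when wild type A, B or C, or labelled mutant D or F, was left out (0.434, 0.424, 0.0981, 0.548 and 0.171).

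Genes on chromosome 7 were frequent among those with the smallest p values. They made up 8.12% of the genes tested, 10 of the 20 genes with the smallest p and 14 of the 32 with p below 0.001. Of 631 genes within 40 Mb of Bckdk, 11.7% had an unadjusted p below 0.05, against 6.93% on other chromosomes and 7.22% at 40 Mb or more from Bckdk on chromosome 7. The share was 12.0% within 10 Mb, 10.9% from 10 to 20 Mb and 12.2% from 20 to 40 Mb. Of the 12 genes within 40 Mb with p below 0.001, 5 were higher and 7 lower. The mutant allele and the stretch of chromosome 7 inherited with it cannot be told apart in this design.

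**Figure D4:**
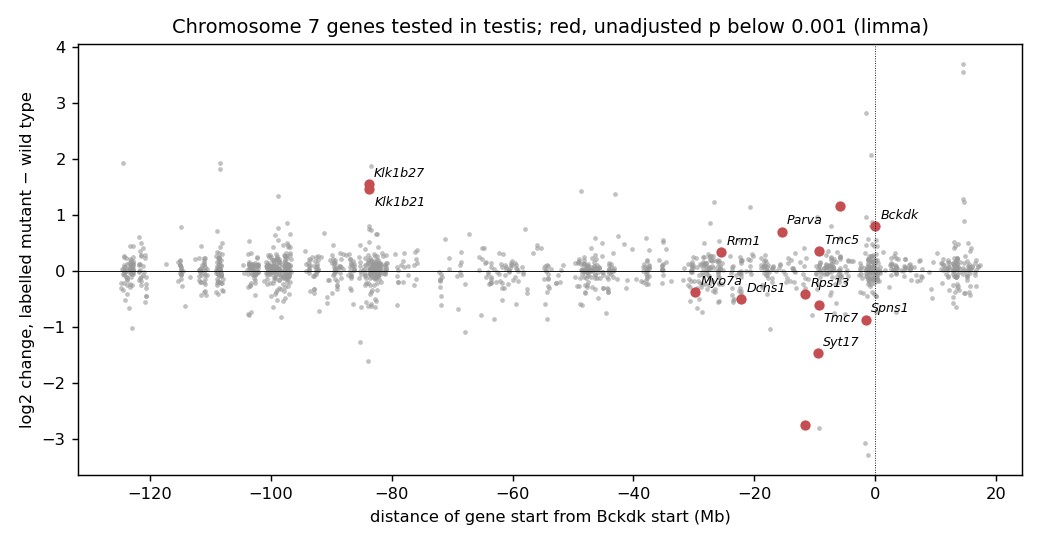
Log2 change (labelled mutant minus wild type) of each tested gene on chromosome 7 against the distance of its start from that of Bckdk in Mb. Red marks the 14 genes with an unadjusted p below 0.001, of which 12 lie within 40 Mb of Bckdk, to its left or at 0, and the other 2 are Klk1b21 and Klk1b27.

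Several named neighbours had separated groups without passing the adjusted test. Tmc7, a transmembrane channel-like gene 9.37 Mb before Bckdk, was at 2685, 2372 and 2790 in wild types and 1577, 1500 and 2083 in labelled mutants (log2 change -0.62, limma adjusted p = 0.309; called without labelled mutant F, 0.02, and by DESeq2, 1.53e-05). Its neighbour Tmc5 went the other way, with 1120, 1124 and 1174 against 1507, 1387 and 1461 (log2 change 0.35, adjusted p = 0.309). Spns1, a lysosomal lysophospholipid transporter 1.53 Mb before Bckdk, was at 132, 177 and 178 against 74.6, 99.4 and 90.6 (log2 change -0.87, adjusted p = 0.349; 0.00851 by DESeq2). In each of these the groups did not overlap, which is usual for genes with so small a p and held for 13.4% of all genes.

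Rrm1, the large subunit of ribonucleotide reductase, was at 1206, 1280 and 1192 against 1504, 1587 and 1556 (log2 change 0.34, adjusted p = 0.309). Parva, an actin-binding adhesion protein, was at 107, 107 and 96.9 against 201, 174 and 137 (log2 change 0.70). Dchs1, a large cadherin of planar cell polarity, was at 321, 281 and 290 against 209, 231 and 190 (log2 change -0.50). The nucleoporin gene Nup98 was at 5253, 5490 and 5711 against 4512, 4474 and 5052 (log2 change -0.23). These 4 lie 15.5 to 25.8 Mb before Bckdk. They too were named for a small p, and in each the groups were apart.

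On other chromosomes, apart from Rps13-ps1 and Gm10167, no gene was called, and the named genes with the smallest p values had varied roles. The proteasome subunit gene Psma2 was at 266, 236 and 266 in wild types and 380, 339 and 365 in labelled mutants (log2 change 0.50). Ass1, which makes argininosuccinate in arginine synthesis, was at 346, 352 and 333 against 602, 562 and 409, with F the lowest labelled mutant (log2 change 0.59, adjusted p = 0.467; 0.0368 without F and 0.0415 by DESeq2). Fads1, a fatty acid desaturase, was at 498, 481 and 503 against 754, 705 and 583 (log2 change 0.45). Here too F was lowest of its group. Cby3 (log2 change 0.55) and Serf1 (0.26) were likewise above every wild type in all labelled mutants.

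On the lower side stood Thbd, the thrombin receptor of endothelium, at 94.4, 99.1 and 91.9 in wild types against 60.5, 54.7 and 45.3 (log2 change -0.83). The maintenance DNA methyltransferase Dnmt1 was at 846, 933 and 859 against 670, 741 and 730 (log2 change -0.30). Tnnt2, a troponin gene of heart muscle, was at 247, 190 and 186 against 126, 133 and 146 (log2 change -0.61). AB124611 was at 169, 153 and 158 against 112, 110 and 106 (log2 change -0.55). All 4 had groups that did not overlap and adjusted p values above the threshold. Groups were apart for 13.4% of all genes, and these genes were named for a small p, so their separation adds no support.

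The series' title concerns luteinizing hormone and testosterone, and none of the 22 Leydig cell genes tested was called. Of them 15 were higher and 7 lower, the median log2 change was 0.09 against 0.03 for all genes, and 7 had an unadjusted p below 0.05, all higher, against 5.57% of all genes in that direction. Under edgeR, whose median over all genes was near 0, 13 were higher and 9 lower, and 4 higher and 1 lower had p below 0.05. Without wild types A and B together, which left wild type C alone, the Leydig median was 0.14, against 0.02 for all genes. The lowest Leydig median of the alternatives was 0.05, without labelled mutant D. Lhcgr, the luteinizing hormone receptor, was at 39.7, 62.5 and 54.3 in wild types and 81.7, 73.7 and 61.3 in labelled mutants. Wild type B lay above labelled mutant F, so the groups overlapped (log2 change 0.48, SE 0.21, limma adjusted p = 0.698). Star, which carries cholesterol into mitochondria, was at 686, 868 and 856 against 907, 795 and 560, widely overlapping (log2 change -0.11, SE 0.15, adjusted p = 0.898).

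The enzymes of the pathway gave mixed values. Cyp11a1, which makes pregnenolone from cholesterol, was at 897, 797 and 847 in wild types and 1174, 1176 and 824 in labelled mutants, where F lay among the wild types (log2 change 0.30, SE 0.12, adjusted p = 0.696). Cyp17a1, which makes androgen precursors, was at 1726, 1453 and 1720 against 2607, 2259 and 1803, higher in every labelled mutant (log2 change 0.43, SE 0.11, unadjusted p = 0.00242, adjusted p = 0.696). Hsd17b3, which makes testosterone, was at 197, 212 and 217 against 229, 172 and 242, overlapping, with a log2 change of 0.02 (SE 0.13) whose sign turned under 4 other scalings or tools.

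Hsd3b1 and Hsd3b6, paralogous dehydrogenases of the same route whose reads may be shared, overlapped between groups. Hsd3b1 was at 516, 566 and 509 against 621, 494 and 647 (log2 change 0.14), and Hsd3b6 at 642, 711 and 777 against 912, 707 and 882 (log2 change 0.23). Insl3 was at 2744, 2852 and 2504 against 3178, 3051 and 2521 (log2 change 0.11, SE 0.08). Vcam1, an adhesion molecule found on mouse Leydig cells, was at 675, 685 and 576 against 927, 733 and 774, not overlapping (log2 change 0.33, adjusted p = 0.696). The median level of the Leydig genes relative to the wild-type mean was 0.21 in D, 0.09 in E and 0.02 in F on the log2 scale. In wild types A, B and C it was 0.03, 0.06 and 0.01. D was thus highest, and F lay below A and B.

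Among 24 genes of luteinizing hormone and cAMP signalling, 16 were higher and 8 lower, with a median of 0.04 and no call. For 28 genes of cholesterol synthesis and uptake the split was 20 to 8 and the median 0.04. By median-of-ratios both leads were lost, with splits of 12 to 12 and 14 to 14. Mvk, mevalonate kinase, was at 75.9, 93.3 and 76.8 in wild types and 123, 129 and 101 in labelled mutants (log2 change 0.52), and Dhcr7, which completes cholesterol, at 118, 129 and 151 against 177, 177 and 171 (log2 change 0.41). Both were apart between groups, as were 13.4% of all genes, and both had adjusted p = 0.696 (limma). They were named for the smallest p of their list.

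Genes that break down branched-chain amino acids, the pathway Bckdk restrains, differed little. Of 32 tested, 23 were higher and 9 lower, where 59.6% of all genes were higher. The median was 0.07, 1 had an unadjusted p below 0.05, against 7.09% of all genes, and none was called. By median-of-ratios the split was 19 to 13 with a median of 0.03, and without wild types A and B together the median was 0.01. The members that follow were named after their values were seen, for their place in the route, apart from Hsd17b10 and Hibch. The transaminase gene Bcat2 was at 134, 139 and 161 in wild types and 152, 152 and 136 in labelled mutants (log2 change 0.02, SE 0.13). Of the dehydrogenase that Bckdk targets, Bckdha was at 447, 450 and 422 against 421, 516 and 469 (log2 change 0.09, SE 0.09). Bckdhb was at 35.3, 38.3 and 36.7 against 28.2, 26.5 and 32.9, lower in every labelled mutant (log2 change -0.33, SE 0.23, adjusted p = 0.785).

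Dbt, the core of the same complex, was at 93.5, 92.5 and 87.7 against 103, 103 and 117, higher in every labelled mutant (log2 change 0.23, SE 0.14, adjusted p = 0.755). Ppm1k, the phosphatase that opposes the kinase, was at 101, 76.6 and 88.5 against 107, 85.3 and 95.9, overlapping. Hsd17b10, of isoleucine breakdown, had the smallest p at 82.1, 67.5 and 69.3 against 108, 110 and 87.9 (log2 change 0.48, adjusted p = 0.696). Hibch, of valine breakdown, was at 90.0, 91.6 and 89.4 against 78.6, 63.8 and 81.7 (log2 change -0.28, adjusted p = 0.747). Its groups were apart.

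Genes that respond to amino acid supply showed no call either. The split was 11 higher to 15 lower among 26 amino acid transporters, 24 to 16 among 40 genes of leucine sensing and mTORC1 control, 17 to 14 among 31 genes of the amino acid stress response and 17 to 3 among 20 cytosolic tRNA synthetases, with medians of -0.01, 0.04, 0.02 and 0.04. The splits depended on the scaling, and by edgeR they were 8 to 18, 20 to 20, 13 to 18 and 11 to 9. Slc36a1, a lysosomal amino acid transporter, was at 212, 181 and 190 against 157, 152 and 149 (log2 change -0.34, adjusted p = 0.696). Rragb, a Rag GTPase of mTORC1 activation, was at 102, 99.1 and 86.0 against 131, 117 and 125 (log2 change 0.38, adjusted p = 0.696). In both genes the groups did not overlap, which held for 13.4% of all genes, and both were named for a small p in their lists. Gpt2, an alanine transaminase, was at 417, 401 and 490 against 591, 502 and 512 (log2 change 0.30, adjusted p = 0.696).

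The mitochondrial respiratory chain showed the most one-sided split of the lists with at least 20 genes tested. Of 51 nuclear-encoded subunits, 50 were higher and 1 lower, with a median log2 change of 0.15, 18 with an unadjusted p below 0.05 in the higher direction and 30 whose groups did not overlap there, against 5.57% and 9.72% of all genes. Under other scalings fewer subunits had a higher value at that p: 10 by median-of-ratios, 11 by TMM, 9 by edgeR and 4 by DESeq2, against 3.09%, 3.14%, 2.64% and 1.80% of all genes. No subunit was called by limma with the deposited size factors. Uqcrq, of complex III, was at 1626, 1584 and 1540 in wild types and 2008, 1813 and 1759 in labelled mutants (log2 change 0.23, SE 0.06, limma adjusted p = 0.696), and Sdhb, of complex II, at 746, 695 and 744 against 837, 816 and 873 (log2 change 0.21). The lower member was Cox4i2, at 27.4, 16.7 and 26.7 against 12.1, 12.4 and 16.0. Scaling within testis left 47 higher and 4 lower with a median of 0.11 by median-of-ratios, and without wild types A and B together the split was 49 to 2, with 2 subunits higher at an unadjusted p below 0.05, against 2.43% of all genes.

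Of 11 mitochondrially encoded transcripts, 10 were higher, with a median of 0.10. For mt-Nd6, a complex I subunit, the values were 2309, 2126 and 2276 against 2821, 2655 and 2480 (log2 change 0.24, adjusted p = 0.673), apart between groups. The exonic length of a gene, over all its annotated exons with overlaps counted once, moved with these values. Among protein-coding genes the median log2 change was 0.13 for 601 genes with up to 1000 exonic bases, 0.08 up to 2000, 0.05 up to 4000, 0.02 up to 8000 and -0.00185 above that. The median exonic length was 1801 bases for the respiratory chain subunits, 889 for the kallikreins and 4211 for all protein-coding genes tested. Ribosomal protein genes, a group chosen after the values were seen and also short (median 1754.5 bases), were higher in 74 of 78 cases with a median of 0.16. The part of length in the respiratory chain and kallikrein values was not tested.

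Germ cell lists moved little. Of 21 genes of protamines, transition proteins and spermatid chromatin, 19 were higher, against 59.6% of all genes, with a median of 0.10. An unadjusted p below 0.05 was reached by 4, all higher, against 5.57% of all genes in that direction. The median exonic length of this list was 1102 bases. Of protein-coding genes with 1000 to 2000, 70.2% were higher, 11.6% at that p, with a median of 0.08. The part of length was not tested. Spem1 was at 4342, 4266 and 4319 in wild types and 4862, 4964 and 4899 in labelled mutants, apart by far more than the spread within groups (log2 change 0.19, SE 0.05, limma adjusted p = 0.673). Its name was fixed with earlier results of these data known, so the separation adds no support. Meig1, which spermatids need to build the tail, was at 8698, 9502 and 8541 against 11438, 9625 and 10446 (log2 change 0.23). The acrosome list split 28 to 7 (median 0.05), the flagellum and axoneme list 48 to 14 (0.04), and the CatSper and ion channel list 13 to 9 (0.05). By edgeR the flagellum split was 33 to 29, so its excess of higher members rested on the scaling.

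Meiotic genes split 24 to 14 (median 0.03), piRNA pathway genes 13 to 11 (0.00) and spermatogonial genes 11 to 11 (0.03). The first 2 leans turned under other scalings, to 18 to 20 and 9 to 15 by edgeR. Hormad1, of the meiotic chromosome axis, was at 895, 980 and 1003 against 1234, 1056 and 1104 (log2 change 0.24, adjusted p = 0.696). Dnah2, an axonemal dynein chain, went lower, at 3454, 3633 and 3591 against 3132, 3077 and 3252 (log2 change -0.17, adjusted p = 0.696). Gtsf1, a piRNA pathway factor, was at 3241, 3168 and 3166 against 3448, 3530 and 3558 (log2 change 0.14, adjusted p = 0.696). In these 3 genes the groups did not overlap, which held for 13.4% of all genes. They were named for a small p in their lists, so this adds no support.

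Sertoli cell genes split 15 to 12 with a median of 0.00, and 11 to 16 by edgeR. Inha, the alpha subunit of inhibin, was at 530, 525 and 487 in wild types and 575, 698 and 591 in labelled mutants (log2 change 0.27, adjusted p = 0.696). Peritubular myoid genes split 7 to 6, and their Tpm2, at 271, 69.1 and 588 against 531, 506 and 545, followed the muscle markers, with wild type B far below the rest. Collagen and matrix genes were lower in 18 of 23 cases (median -0.20), endothelial markers in 12 of 14 (-0.19) and interferon-induced genes in 15 of 18 (-0.13). Kdr, the endothelial receptor for vascular growth factor, was at 101, 141 and 91.0 against 80.7, 66.3 and 73.7 (log2 change -0.56), and Fn1, fibronectin, at 449, 482 and 421 against 289, 355 and 410 (log2 change -0.37). Without wild types A and B together, the endothelial split turned to 8 higher and 6 lower, the collagen median was -0.11 and the interferon median -0.35. With 1 library left out, the endothelial median ran from -0.31 (without C) to -0.09 (without B), the interferon median from -0.27 (without B) to -0.08 (without C) and the collagen median from -0.20 (without A) to -0.13 (without F).

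Skeletal muscle markers had the largest list median. Of 28 tested, 26 were higher, with a median of 1.44 and no call, and without A and B together the median was -0.11. It was 2.21 without C and 0.82 by edgeR. Myh1, a fast myosin of skeletal muscle, was at 85.6, 36.6 and 248 in wild types and 254, 231 and 242 in labelled mutants, so wild type C matched the latter. Of 11 islet markers 10 were lower (median -0.28). Without A and B together 10 were higher (median 0.19), and without C all 11 were lower (-0.58). Ins2 was at 9463, 9468 and 5640 against 5586, 6457 and 6241, and muscle libraries of the study also held Ins2, at 6594 to 16070. Where these transcripts came from, and their part in other differences between the groups, was not tested.

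**Figure D5:**
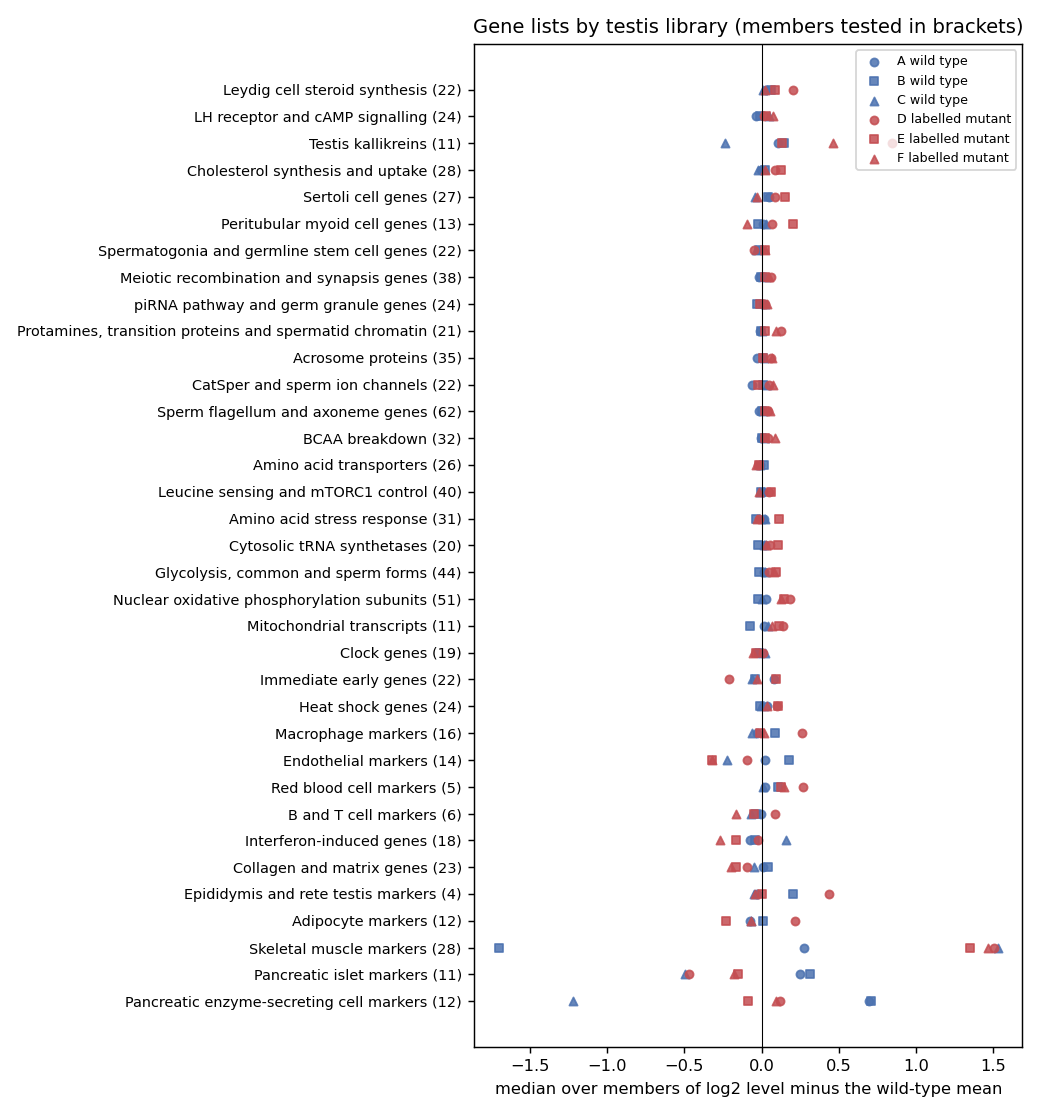
Median, over the tested members of each list (number in brackets), of the log2 level in a library minus the wild-type mean, with wild types in blue and labelled mutants in red. The 3 labelled mutants lie to the right of the wild types for the respiratory chain subunits (0.13 to 0.19), and wild type B is far to the left for skeletal muscle markers at -1.70.

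The remaining lists held no call. Glycolytic genes split 36 to 8 (median 0.07), heat shock genes 20 to 4 (0.06), clock genes 7 to 12 (-0.02) and immediate early genes 8 to 14 (-0.03). Hspb9, a testis small heat shock protein, was at 6204, 5575 and 5440 in wild types and 6554, 7282 and 6497 in labelled mutants, apart between groups (log2 change 0.24, adjusted p = 0.696). Per2, a clock repressor, was at 116, 127 and 122 against 78.6, 90.3 and 114, lower in every labelled mutant (log2 change -0.38, adjusted p = 0.696). Macrophage markers split 9 to 7, red blood cell markers 5 to 0, B and T cell markers 2 to 4, adipocyte markers 5 to 7, epididymis and rete testis markers 3 to 1 and pancreatic enzyme-secreting cell markers 6 to 6. The last of these depended on which libraries entered: without A and B together all 12 were higher (median 1.11), without C 11 were lower (-0.62), and by edgeR the split was 3 to 9. Macrophage markers turned to 7 to 9 by edgeR, and epididymis and rete testis markers to 1 to 3 without A and B together.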

How the data were processed

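RNA was measured by polyA-selected sequencing of paired reads of 150 bases, from about 20 mg of tissue with an RQN above 7.2, per the labels' protocols. Per the submitters' processing notes, the build was GRCm38.p4 and the tools, with no roles stated, were HISAT2 2.1.0, HTSeq 0.11.2, fastp 0.23.4, DESeq2 1.46.0 and Picard 1.119. The authors deposited normalised read counts, which are signal values equal to counts divided by a size factor for each library, and regularised log2 values. All values of the 6 testis libraries came out as whole reads within 0.001, which gave the depth. The columns carry different mouse numbers, so replicates are separate animals, but the replicate numbers of the labels are not tied to them.

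The members and gene lists were chosen with earlier results of these data known. Log2(normalised count + 1) was compared with limma 3.58.1 in R 4.3.3 (trend, two-sided, Benjamini-Hochberg over all genes tested). The smallest p of an exact permutation test with 3 against 3 is 0.1. A call is an adjusted p below 0.05. The difference between tissues was the interaction in a limma fit of all 12 libraries, on 14677 genes. Genes were named if fixed by name, called, among the 10 smallest p values in a direction with a mean of at least 50, or among the 2 smallest of a list. Predicted genes and pseudogenes outside the fixed names were only counted, unless called. Positions are from GENCODE M21, and copies were compared with blastn 2.17.0+. Alternatives used edgeR 4.0.16 and DESeq2 1.42.0 on recovered reads, other scalings, filters and pseudocounts, and left-out libraries. In simulated data (19370 genes), 50 genes with a wild-type mean above 50 reads were changed at each fold, with an assumed spread between libraries. There 68% of 1.5-fold and 100% of 2-fold changes were recovered, with 16 false calls. These shares hold for those settings only. Changed genes with fewer reads, or with a wider spread, were not covered. A gene and the values that need it are not reported here.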

Additional observations from a re-analysis of the deposited data

Results flagged for a closer look

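For 2 features, the change between the labelled groups differed between testis and muscle in the interaction test, out of 14677 genes (0.0136%). Bckdk changed by 8.14 log2 units more in testis than in muscle (limma adjusted p = 1.26e-10), being higher in testis and lower in muscle of the mice labelled mutant. NeoR changed by -3.52 log2 units relative to muscle (limma adjusted p = 0.0165). It was higher in the labelled mutants of both tissues, in 3 of 3 libraries each, which the filter on low values required of it.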

How the results depend on the processing

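The 4 calls became 1 with a pseudocount of 0.5, with a mean of at least 50, with TMM, and without wild types A and B together. They became 2 with the deposited rlog values, 10 with DESeq2 (5 higher and 5 lower) and 0 with limma without a trend, where 1183 genes had an unadjusted p below 0.05. Leaving out 1 library gave 1 (without A, B or D) to 6 (without C) calls. The 2 differences between tissues became 1 with edgeR, and 1 (without B, D, E or F) to 3 with a library left out. Rps13-ps1 was called in all runs but limma without a trend (adjusted p = 0.0823). The change of Hsd17b3 became -0.0121 by median-of-ratios, -0.00904 by TMM, -0.00685 by edgeR and -0.00156 by DESeq2. It was -0.0366 without A and B, and -0.0739 to 0.172 with 1 library left out. That of Star was -0.258 (without D) to 0.089 (without F). Without A and B together, Tpm2 turned to -0.16, Myh1 to -0.0349, Actn3 to -0.0475, Ins2 to 0.11 and Cel to 0.27. Of the list medians, 606 recomputed values stayed within the spread between replicates and 93 moved. The cause was not tested. No paired analysis was possible because each mouse gave 1 testis library, in 1 group, and the columns do not carry the replicate numbers of the labels. Between tissues mouse numbers do pair libraries, and with the mouse as a random block, added after seeing the data, 2 differences between tissues were called. At these depths the median SE of a log2 change was 0.11 for genes with a mean of at least 50.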
